A study of Mus musculus with 12 samples.

Results

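The UDP-glucuronosyltransferase (UGT) genes examined here were Ugt1a1, Ugt1a6a, Ugt1a9, Ugt2a3, Ugt2b1, Ugt2b5, Ugt2b34, Ugt2b35, Ugt2b36 and Ugt2b38. They were taken by gene name and make up 10 of the 22 UGT rows among the 57180 genes in the deposited liver tables. All 10 passed the filter on low counts, as did 19355 genes in total.

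The data come from total RNA sequencing of 12 mouse livers in 4 groups of 3: Het females (Het_F_111, Het_F_115 and Het_F_126), Het males (Het_M_119, Het_M_125 and Het_M_137), KO females (KO_F_108, KO_F_112 and KO_F_123) and KO males (KO_M_118, KO_M_122 and KO_M_136, the number being the mouse). Values are given in this order of mice throughout. Every mouse lacked Csa (gene Ercc8), a transcription-coupled repair factor lost in Cockayne syndrome, and every mouse had received a neonatal intracerebroventricular dose of AAV9-CSA, a viral vector that carries human CSA cDNA under a chicken β-actin promoter. KO animals were the double mutants called CX mice, collected at humane endpoint, and Het animals were age-matched littermates of genotype Csa-/- Xpa+/-. The study's description of CX mice gives their genotype as Csa-/- Xpa-/-, whereas its methods for this experiment write Xpa+/+ for the KO livers, and the labels say only KO and Het. Xpa RNA, a check of that label, was lower in KO livers at 1.24 ± 0.30 CPM (normalized counts scaled to a library of 1000000, SD, n = 6) against 4.72 ± 1.39 (SD, n = 6), an adjusted p of 5.74e-05 in edgeR's quasi-likelihood test. Ercc8 RNA ran from 5.12 to 8.76 CPM in Het and from 14.7 to 34.3 CPM in KO livers (adjusted p = 1.89e-04 in edgeR), and which part of Ercc8 the deletion removes is not given in the sources used here. Ages are not given in the labels, and nothing in this design holds livers without the Csa deletion or without the vector. KO livers therefore differ from Het livers in Xpa genotype and in having reached endpoint, which cannot be told apart here.

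UGT enzymes sit in the membrane of the endoplasmic reticulum and move glucuronic acid from UDP-glucuronic acid onto bilirubin, steroids, bile acids and drugs, which makes these compounds water soluble for excretion in bile and urine. Liver is their main site. The Ugt1a genes share a locus in which each alternative first exon, which codes for the substrate-binding part, is spliced to the same downstream exons. The Ugt2 members examined here are separate, tandemly arranged copies.

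In the GENCODE M39 annotation of GRCm39, the Ugt1a genes overlap on the plus strand of chr1, with Ugt1a9 at chr1:87998450-88147724, Ugt1a6a at chr1:88062222-88147724 and Ugt1a1 at chr1:88139679-88147724. Exons 2 to 5 began at the same bases in all 9 Ugt1a genes. They held 2316 of the 3231 bases (71.7%) of the Ugt1a1 transcript, so most of a Ugt1a transcript cannot by itself show from which first exon it came. The first 60 coding bases of each first exon are shown (plus strand), because the first exon is where reads tell the members apart.
Ugt1a1 exon 1 (chr1:88139724-88139783): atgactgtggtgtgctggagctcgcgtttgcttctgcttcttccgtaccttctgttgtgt
Ugt1a6a exon 1 (chr1:88066196-88066255): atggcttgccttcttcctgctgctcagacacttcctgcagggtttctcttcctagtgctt
Ugt1a9 exon 1 (chr1:87998552-87998611): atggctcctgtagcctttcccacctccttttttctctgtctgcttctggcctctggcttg
By 31-base words of all GENCODE M39 transcripts, 28.5% of the words of Ugt1a1 and 23.7% of those of Ugt1a9 occurred in no other gene. For Ugt1a6a the share was 1.54%, and 3147 of its 3240 words also occurred in transcripts of Ugt1a7c. Its coding sequence was 98.4% identical to that of Ugt1a6b. Values of Ugt1a6a are therefore uncertain as to which of these genes they belong to.

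The Ugt2 members lie on chr5, all on the minus strand except Ugt2b35: Ugt2b34 (chr5:87037626-87054814), Ugt2b1 (chr5:87064497-87074389), Ugt2b35 (chr5:87148701-87161742), Ugt2b36 (chr5:87212668-87240422), Ugt2b5 (chr5:87272226-87288211), Ugt2a3 (chr5:87472734-87485055) and Ugt2b38 (chr5:87557801-87572062). Ugt2b38 and Ugt2b5 were the closest of 21 Ugt2b pairs, at 97.0% identity of their coding bases, and the lowest identity of any pair was 71.0%. The stretch of exon 1 from coding base 601 to 660 is shown for both and for Ugt2b37, a near copy outside the list, with bases that differ from Ugt2b38 in capitals. Of the evenly stepped stretches of this length in exon 1, it was chosen as the one with most differences between Ugt2b38 and Ugt2b5, which numbered 3. Ugt2b37 differed at 1 base.
Ugt2b38 (chr5:87571371-87571430, minus strand): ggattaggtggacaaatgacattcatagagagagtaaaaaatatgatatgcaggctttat
Ugt2b37 (chr5:87401970-87402029, minus strand): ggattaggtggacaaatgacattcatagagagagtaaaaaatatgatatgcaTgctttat
Ugt2b5 (chr5:87287506-87287565, minus strand): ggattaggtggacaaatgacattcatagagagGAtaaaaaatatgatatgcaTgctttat
Words found in no other gene made up 47.1% for Ugt2b38 and 57.9% for Ugt2b5, so some reads of one can be assigned to the other. In Ugt2a3, Ugt2b1, Ugt2b34, Ugt2b35 and Ugt2b36 this share lay between 90.7% and 99.2%.

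Levels of different genes were compared as TPM, the authors' transcript abundances, which allow for transcript length and are scaled to 1 total in every liver. In Het livers of both sexes Ugt2b5 was highest of the members, at 255.7 ± 29.7 TPM in females and 338.6 ± 79.1 TPM in males (SD, n = 3 each). The order below it differed between the sexes.

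In Het females Ugt1a1 (190.1 ± 45.6 TPM) and Ugt2b36 (179.3 ± 14.0) came next by mean, with overlapping ranges. Then came Ugt1a9 (130.6 ± 46.4), Ugt2b34, Ugt2a3 (81.4 ± 7.44) and Ugt2b1 (57.5 ± 18.01). The Ugt1a9 range there, 91.3 to 181.8 TPM, overlapped those of Ugt1a1, Ugt2b36 and Ugt2b34. In Het males Ugt2b36 (210.0 ± 21.4 TPM) and Ugt2b1 (149.5 ± 14.2) followed Ugt2b5, while Ugt1a1 (113.9 ± 29.2) stood below Ugt1a9 and overlapped both it and Ugt2b34. Ugt1a6a and Ugt2b35 were lower in both sexes, between 29.6 and 51.2 TPM on average. Ugt2b38 was last, at 0.142 TPM in Het females and 12.5 TPM in Het males.

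In KO livers Ugt1a1 was first in both sexes. Over the 6 livers it stood at 262.1 ± 46.6 TPM (SD, n = 6), and its lowest KO liver (211.1) stood above the highest KO liver of Ugt2b5 (191.9). Ugt2b5 averaged 155.8 ± 19.4 and Ugt2b36 141.9 ± 15.3, with overlapping ranges. Within single KO livers Ugt2b5 was the higher of these except in KO_M_136 (145.2 against 155.9 TPM). Ugt2a3, Ugt2b1, Ugt1a9 and Ugt2b34 then followed between 67.9 and 50.4 TPM on average. Ugt2b35 and Ugt1a6a averaged 33.99 and 32.8 TPM, and Ugt2b38 was 0.0395 ± 0.0187 TPM.

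The make-up of UGT transcripts therefore differed between the genotypes. Ugt1a1 supplied 5.86% to 17.4% of the TPM of all UGT genes in Het livers and 21.9% to 37.7% in KO livers, with no overlap. Ugt2b5 went the other way, from 18.1% to 26.9% in Het livers to 13.8% to 17.1% in KO livers, again with no overlap. Shares of Ugt2b36 were alike, at 13.3% to 14.9% in Het livers and 12.7% to 14.8% in KO livers. The members together held 82.3% to 87.8% of UGT TPM over the 12 livers. On counts, the sum of all UGT rows was 3873 ± 665 CPM in Het livers and 2801 ± 287 CPM in KO livers (SD, n = 6 each), with ranges that did not overlap.

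**Figure D1:**
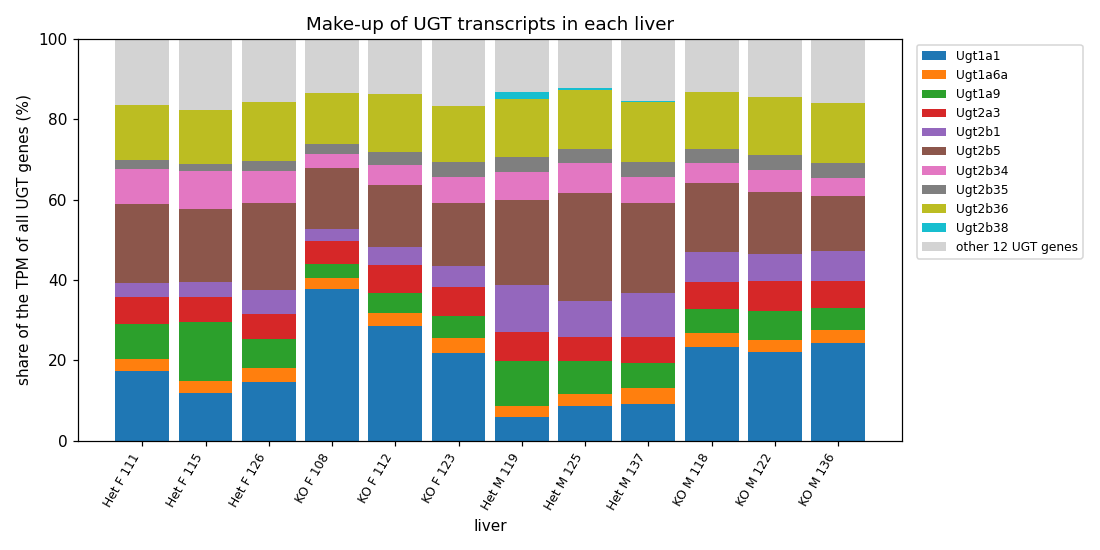
Share of each member, in percent of the TPM of all UGT genes (vertical axis), in each of the 12 livers (horizontal axis), with the other 12 UGT rows in grey. The Ugt1a1 block at the bottom reaches 21.9% to 37.7% in KO livers and 5.86% to 17.4% in Het livers.

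The main question was which UGT genes differ between KO and Het livers. Between livers, genes were compared on counts scaled by library size and trimmed mean of M values (TMM), given as CPM. One member rose and 8 fell when both sexes were pooled. Ugt1a1, the enzyme that conjugates bilirubin, was 1.75-fold higher in KO livers. Ugt1a6a, Ugt1a9, Ugt2a3, Ugt2b1, Ugt2b5, Ugt2b34, Ugt2b36 and Ugt2b38 were lower, and Ugt2b35 did not pass the test. A call means an adjusted p under 0.05 in edgeR's quasi-likelihood test, adjusted by the Benjamini-Hochberg method over all 19355 genes. Of those genes 11.4% were called higher and 10.3% lower in KO livers, so 8 of 10 members called lower was a larger share than the background. Because the members were chosen with earlier results of these data known, this larger share is a description. The median log2 fold change of the 10 members was -0.63, beside 0.01 for all genes tested. Because whole liver was sequenced, fewer cells of a type and less RNA per cell cannot be told apart.

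**Figure D2:**
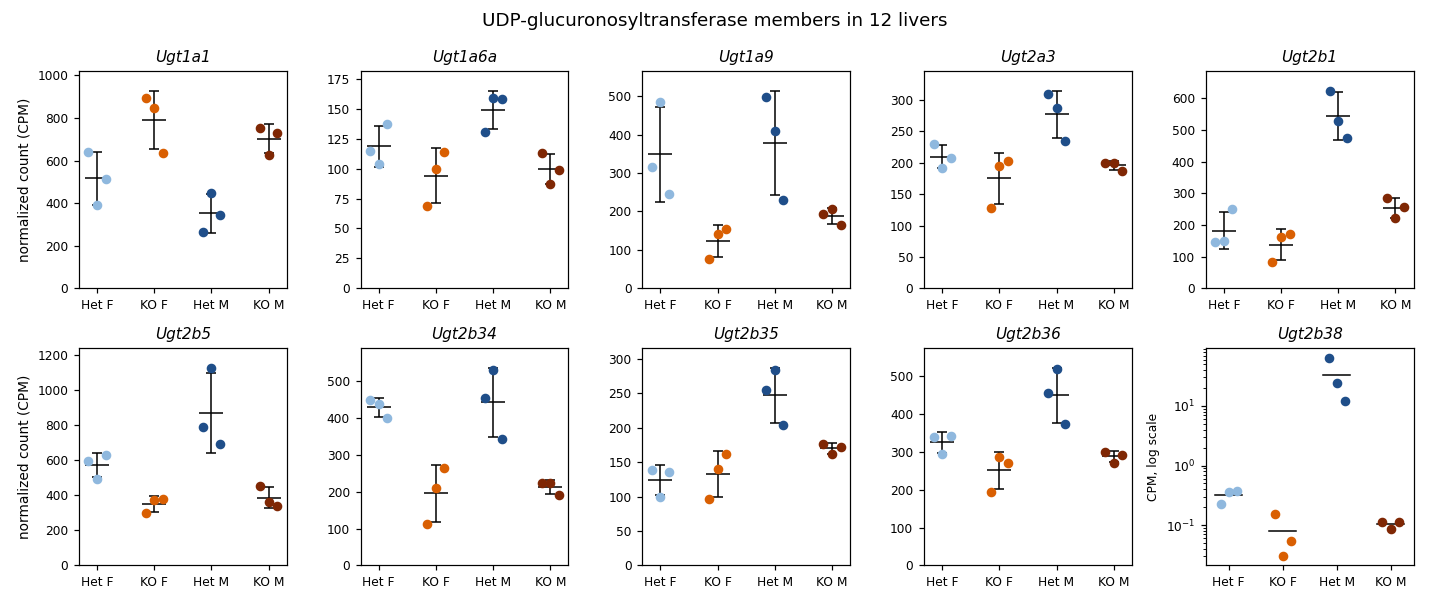
Normalized counts (CPM, vertical axes, linear from 0 except Ugt2b38, which has a log axis) of the 10 members in each liver (points), by group; horizontal bars are group means and error bars are SD (n = 3; no SD is drawn for Ugt2b38). Ugt1a1 has higher KO means in both sexes, and Ugt1a9, Ugt2b5, Ugt2b34 and Ugt2b38 have all 6 KO livers below all 6 Het livers.

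Ugt1a1 measured 639, 394 and 516 CPM in Het females, and 894, 846 and 636 CPM in KO females. In males it measured 266, 446 and 346 CPM in Het livers, and 754, 628 and 728 CPM in KO livers. Every KO male stood above every Het male, while 1 Het female (Het_F_111) lay just above 1 KO female (KO_F_123). The log2 fold change was 0.81 ± 0.16 (SE, adjusted p = 0.00528 in edgeR's quasi-likelihood test).

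Ugt1a9, an enzyme of bulky phenols and many drugs, changed in the opposite direction at the same locus. It measured 315, 484 and 246 CPM in Het females and 76.5, 141 and 153 CPM in KO females. Het males gave 497, 408 and 229 CPM, and KO males 195, 206 and 165 CPM. No KO liver reached the lowest Het liver. The log2 fold change was -1.25 ± 0.24 (SE, adjusted p = 0.00463 in edgeR's quasi-likelihood test), a 2.38-fold lower level.

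Ugt1a6a, an enzyme of small planar phenols, measured 114, 104 and 137.4 CPM in Het females and 69.0, 99.4 and 114 CPM in KO females, which overlapped. Het males gave 130, 159 and 158 CPM against 113, 87.4 and 99.2 CPM in KO males, which did not. Its log2 fold change was -0.45 ± 0.13 (SE, adjusted p = 0.0313 in edgeR's quasi-likelihood test), a call lost in 7 of 12 fits that left out 1 liver. Summed with its near copy Ugt1a6b, an alternative chosen after seeing the data, the change was -0.52 ± 0.15 (adjusted p = 0.0260 in edgeR). That sum leaves out Ugt1a7c, the gene with which Ugt1a6a shares most words.

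The 9 Ugt1a rows were also added into 1 gene, since their shared exons leave the split between them to the authors' quantification. The sum ran from 989 to 1267 CPM in Het livers and from 1116 to 1317 CPM in KO livers, and the ranges overlapped. Its log2 fold change was 0.06 ± 0.10 (SE, adjusted p = 0.710 in edgeR's quasi-likelihood test), with 0.02 in females and 0.10 in males. The TPM shares of Ugt1a1 and Ugt1a9 within the locus did differ, as far as the authors' quantification separates these genes. Ugt1a1 made up 23.8% to 50.4% of Ugt1a TPM in Het livers and 55.7% to 76.6% in KO livers, and Ugt1a9 went from 22.4% to 45.3% in Het livers to 6.66% to 18.6% in KO livers. Neither pair of ranges overlapped.

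**Figure D3:**
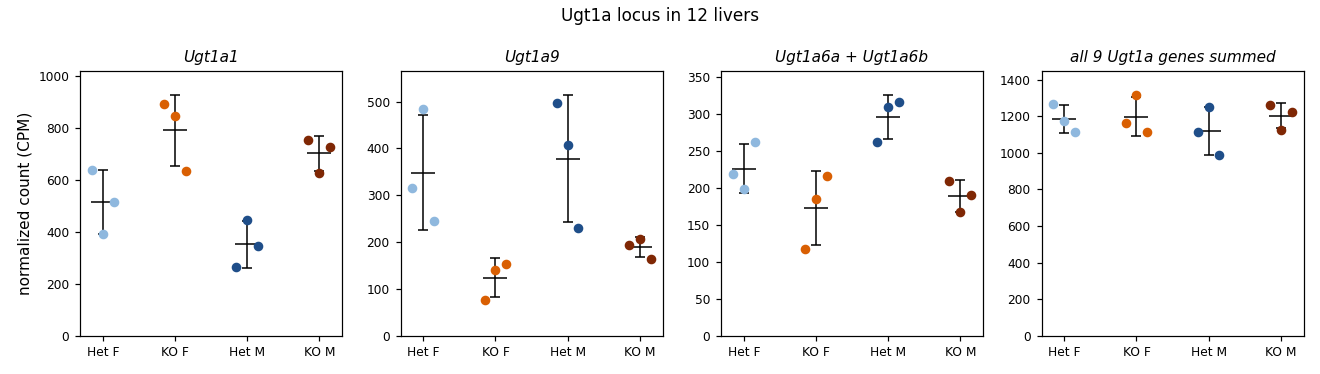
Normalized counts (CPM, vertical axes from 0) of Ugt1a1, Ugt1a9, the sum of Ugt1a6a and Ugt1a6b, and the sum of all 9 Ugt1a genes in each liver (points), by group; horizontal bars are means and error bars are SD (n = 3). Ugt1a1 is higher and Ugt1a9 lower in KO groups, while the sum of the locus runs from 989 to 1317 CPM over the 12 livers.

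Ugt2b5 and its neighbours act on steroids, bile acids and drugs as a group. Ugt2b5 measured 594, 495 and 627 CPM in Het females and 298, 376 and 378 CPM in KO females. Among males, Het livers had 788, 1127 and 693 CPM and KO livers 455, 364 and 339 CPM. All KO livers were below all Het livers, with a log2 fold change of -0.94 ± 0.14 (SE, adjusted p = 0.00133 in edgeR's quasi-likelihood test).

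Ugt2b34 measured 448, 438 and 399 CPM in Het females, and the KO females had 111.95, 210 and 264 CPM. Het males had 455, 529 and 342 CPM and KO males 225, 222 and 191 CPM. Again no KO liver reached a Het liver, and the log2 fold change was -1.09 ± 0.19 (SE, adjusted p = 0.00229 in edgeR's quasi-likelihood test), or 2.13-fold lower.

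Ugt2b36 measured 338, 293 and 341 CPM in Het females and 194, 286 and 271 CPM in KO females, then 454, 518 and 372 CPM in Het males and 300.3, 270.1 and 291 CPM in KO males. Within each sex the groups did not overlap, although Het_F_115 lay below the highest KO male. Its log2 fold change was -0.51 ± 0.12 (SE, adjusted p = 0.0133 in edgeR's quasi-likelihood test).

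Ugt2a3, whose human counterpart acts on bile acids, measured 229, 192 and 207 CPM in Het females and 128, 195 and 202 CPM in KO females. It measured 309, 286 and 235 CPM in Het males and 199, 200.2 and 187 CPM in KO males. Females overlapped and males did not. The log2 fold change of -0.38 ± 0.13 (SE, adjusted p = 0.0481 in edgeR's quasi-likelihood test) was the closest of the calls to the threshold, and it was lost in 10 of 12 fits that left out 1 liver.

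Ugt2b1 measured 146, 151 and 250.2 CPM in Het females against 83.3, 161 and 170.4 CPM in KO females. In males the Het livers held 625, 530 and 476 CPM and the KO livers 285, 221 and 257 CPM. Females overlapped, whereas every KO male was below every Het male. The log2 fold change over both sexes was -0.75 ± 0.19 (SE, adjusted p = 0.0184 in edgeR's quasi-likelihood test).

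Ugt2b35, the member that was not called, measured 138, 99.4 and 135 CPM in Het females and 96.1, 139 and 161 CPM in KO females. Het males had 254, 283 and 204 CPM and KO males 176, 161 and 173 CPM. Females overlapped and males did not overlap, with a log2 fold change of -0.22 ± 0.14 over both sexes (SE, adjusted p = 0.282 in edgeR's quasi-likelihood test).

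Ugt2b38 showed the widest spread of any member. Estimated counts were 1933, 730.1 and 380 in Het males, and 4.97, 3.49 and 3.54 in KO males. Het females had 8.47, 14.1 and 16.9 estimated counts and KO females 4.76, 1.12 and 2.32. The Het males stood far above every other liver, and KO livers of both sexes were at or close to the limit that a count of 0 allows, 3 counts per liver. Normalized, the Het males stood at 64.3, 23.9 and 12.1 CPM, every Het female lay between 0.228 and 0.369 CPM, and KO livers between 0.0309 and 0.156 CPM.

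Over both sexes the Ugt2b38 log2 fold change was -4.59 ± 0.50 (SE, adjusted p = 2.88e-04 in edgeR's quasi-likelihood test), and for so few counts the fitted size depends on the method. It ran from -1.79 with limma on log2(TPM + 1) to -6.11 in a fit without the interaction, and was called in both. Pooled counts gave a ratio of Het to KO males of 313 (exact 95% interval 179 to 607) and of Het to KO females of 4.14 (1.91 to 10.3). These intervals cover counting error only, and Het_M_119 gave most of the Het male counts. Between livers, the female difference was not called, with a log2 fold change of -1.49 ± 0.68 (SE, adjusted p = 0.179 in edgeR's quasi-likelihood test). Ugt2b5, the gene with which Ugt2b38 shares most words, differed 2.25-fold between Het and KO males.

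Across the family, 4 members had all 6 KO livers below all 6 Het livers (Ugt1a9, Ugt2b5, Ugt2b34 and Ugt2b38), where 4.98% of tested genes did so. No member had all KO livers above, where 4.57% of tested genes did. For comparisons within females, within males or within a genotype such shares were not computed. Separations without overlap given there are descriptions. KO_F_108 was the lowest of the 12 livers for 8 of 10 members, the exceptions being Ugt1a1, for which it was the highest, and Ugt2b38. Without that liver 8 members were still called, with the range over all 12 omissions being 7 to 9.

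Within females alone, Ugt1a9, Ugt2b5 and Ugt2b34 fell and none of the 10 members rose. Their log2 fold changes were -1.49 ± 0.34 (adjusted p = 0.0226), -0.71 ± 0.20 (0.0478) and -1.13 ± 0.26 (0.0232, with SE and adjusted p from edgeR's quasi-likelihood test). In that comparison 4.93% of tested genes were called higher and 4.9% lower. Ugt1a1 had a log2 fold change of 0.62 ± 0.23 (adjusted p = 0.0994). The Ugt2b5 call was lost in 10 of 12 fits without 1 liver and in 3 of 13 other alternatives. With 3 livers a group the count of called members rested on single livers, being 1 without Het_F_111, 0 without Het_F_115, 1 without KO_F_108 and 0 without KO_F_112.

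Within males, Ugt1a1 rose and Ugt2b1, Ugt2b5, Ugt2b34, Ugt2b36 and Ugt2b38 fell. Ugt1a1 was 1.99-fold higher (adjusted p = 0.0247 in edgeR). On the log2 scale Ugt2b1 changed by -1.10 ± 0.28 (adjusted p = 0.0350), Ugt2b5 by -1.17 ± 0.20 (0.00730) and Ugt2b34 by -1.05 ± 0.26 (0.0333, with SE and adjusted p from edgeR's quasi-likelihood test). Ugt2b36 changed by -0.64 ± 0.17 (adjusted p = 0.0458) and Ugt2b38 by -7.70 ± 0.67 (2.30e-04). The Ugt2b36 call was lost in 10 of 12 fits without 1 liver and in 7 of 13 other alternatives. Background calls were 4.01% higher and 2.9% lower. The count of called members fell to 2 without Het_M_119, KO_M_118 or KO_M_136 and to 3 without Het_M_125 or KO_M_122. Without Het_M_119 the Ugt2b38 change was -6.81.

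**Figure D4:**
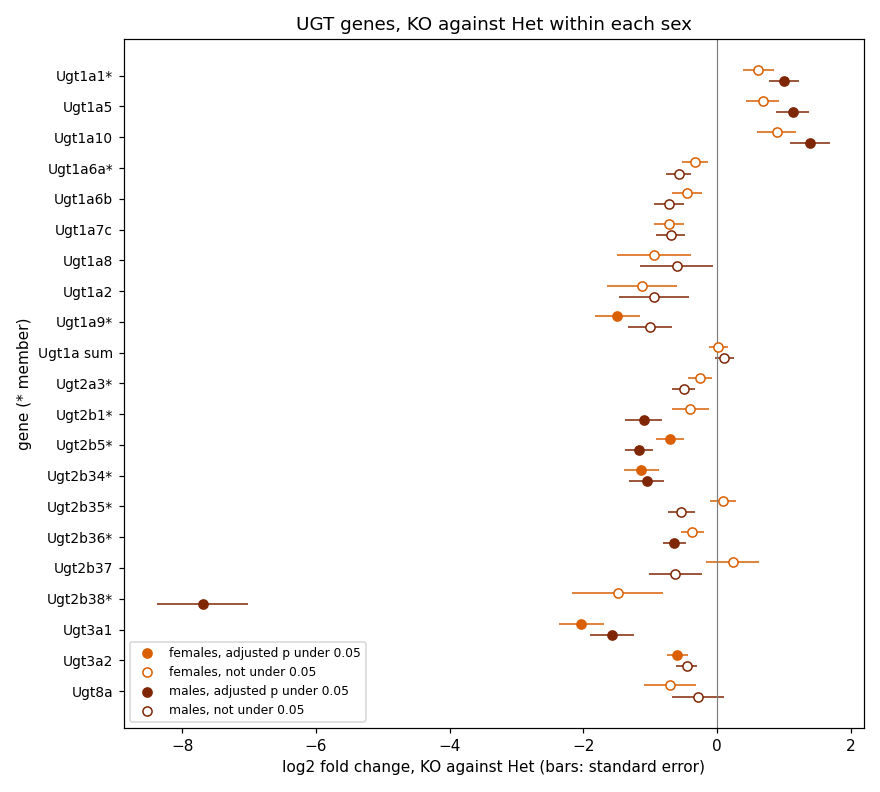
Log2 fold change of KO against Het livers (horizontal axis; bars are standard errors, n = 3 a group) for the 20 UGT genes tested and for the sum of the Ugt1a rows, in females and males; filled points have an adjusted p under 0.05 and asterisks mark the members. Ugt1a1, Ugt1a5 and Ugt1a10 lie right of 0 in both sexes, the sum of the locus lies near 0, and male Ugt2b38 lies farthest left at -7.70.

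Whether the KO effect differed between the sexes was tested by the interaction of genotype and sex. No member was called by edgeR, 2 had an unadjusted p under 0.05, and 0.0465% of tested genes were called. The difference for Ugt2b38 (male minus female change) was -6.21 ± 1.498 (SE, adjusted p = 0.289 in edgeR's quasi-likelihood test), while DESeq2 gave -6.31 with an adjusted p of 5.36e-07 and limma on log2(TPM + 1) gave -3.30 with 0.0325. For Ugt2b35, the other member, the difference was -0.63 ± 0.28 (adjusted p = 0.555 in edgeR). The remaining differences lay between -0.69 for Ugt2b1 and 0.49 for Ugt1a9. A KO effect called in 1 sex and not in the other is therefore not shown to differ between them by the main test.

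Sex differences within each genotype gave a second view of the same livers. In Het livers, Ugt2b1, Ugt2b35 and Ugt2b38 were higher in males, by 1.57 ± 0.28 (adjusted p = 0.0221), 0.99 ± 0.20 (0.0468) and 6.46 ± 0.62 (7.07e-04) on the log2 scale (SE, edgeR's quasi-likelihood test). Background calls in this comparison were 0.377% of tested genes higher and 0.449% lower in males. In Het livers all males stood above all females not only for these but also for Ugt2a3, Ugt2b5 and Ugt2b36, which were not called. The share of all tested genes with such a separation of the sexes was not computed, so it is a description. Without Het_M_119 the Ugt2b38 difference was 5.58. Ugt2b35 was the least secure, its call being lost in 10 of 12 fits without 1 liver, and the count of called members was 1 without Het_F_111, Het_F_115, Het_M_119 or Het_M_125.

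In KO livers no member was called between the sexes, where 0.0465% of tested genes were called higher and 0.0103% lower in males. Ugt2b1 had an unadjusted p of 0.00768 with a log2 difference of 0.88 ± 0.27 (SE, adjusted p = 0.274 in edgeR's quasi-likelihood test), and no KO male overlapped a KO female. Every KO male also stood above every KO female for Ugt1a9 (0.61 ± 0.33, adjusted p = 0.486 in edgeR) and Ugt2b35. Ugt2b35 differed by 0.36 ± 0.20 (adjusted p = 0.491) and Ugt2b38 by 0.26 ± 0.70 (adjusted p = 0.912). The pooled Ugt2b38 ratio of males to females was 101 in Het livers (exact 95% interval 74.1 to 143) and 1.34 in KO livers (0.504 to 3.78), which cover counting error only, and Het_M_119 held 1933 of the 3043 Het male counts behind the first.

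**Figure D5:**
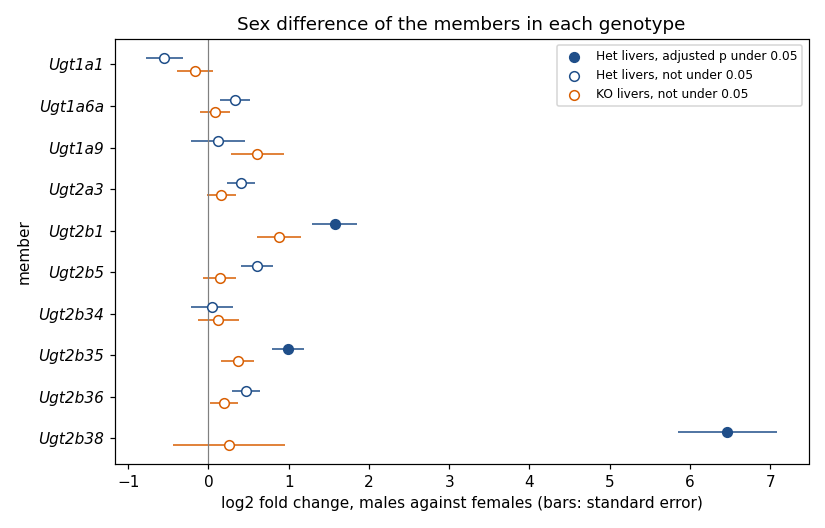
Log2 fold change of males against females (horizontal axis; bars are standard errors, n = 3 a group) for the 10 members (vertical axis) in Het and KO livers; filled points have an adjusted p under 0.05. Ugt2b38 lies at 6.46 in Het livers and at 0.26 in KO livers.

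The promoters of the members were read because Ugt1a1 and Ugt1a9 moved apart within 1 locus and Ugt2b38 differed between the sexes where Ugt2b5 was not called. RefSeq windows (GRCm38.p6) covering 250 bases before each gene start in RefSeq were found exactly once in GRCm39. The bases shown stop where the GENCODE gene begins. The Ugt1a6a window (chr1:88062281-88062530), counted below but not shown, lay wholly inside its GENCODE gene. Capitals mark GTTAAT, or ATTAAC on the other strand, a core of the site for the liver factor HNF1.
Ugt1a1 (chr1:88139431-88139678, plus strand): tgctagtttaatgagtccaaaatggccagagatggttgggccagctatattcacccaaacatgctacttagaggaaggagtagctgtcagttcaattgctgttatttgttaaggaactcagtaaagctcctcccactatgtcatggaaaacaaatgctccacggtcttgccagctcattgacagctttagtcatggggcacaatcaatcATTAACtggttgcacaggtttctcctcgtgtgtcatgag
Ugt1a9 (chr1:87998251-87998449, plus strand): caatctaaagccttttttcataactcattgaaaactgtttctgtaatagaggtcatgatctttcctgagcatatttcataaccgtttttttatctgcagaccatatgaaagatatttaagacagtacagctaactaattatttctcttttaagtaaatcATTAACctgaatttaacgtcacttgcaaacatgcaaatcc
Ugt2b38 (chr5:87572063-87572312, minus strand): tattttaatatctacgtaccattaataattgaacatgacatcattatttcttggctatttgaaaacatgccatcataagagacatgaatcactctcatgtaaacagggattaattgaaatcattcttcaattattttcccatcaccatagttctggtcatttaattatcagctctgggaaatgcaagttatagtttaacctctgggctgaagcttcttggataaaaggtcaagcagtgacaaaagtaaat
Ugt2b5 (chr5:87288212-87288449, minus strand): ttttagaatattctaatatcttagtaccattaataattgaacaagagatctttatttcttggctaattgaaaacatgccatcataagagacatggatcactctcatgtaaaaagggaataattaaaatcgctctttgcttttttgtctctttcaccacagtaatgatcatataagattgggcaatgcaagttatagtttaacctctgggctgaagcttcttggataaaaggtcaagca
GTTAAT on either strand stood in 4 of 10 member windows (Ugt1a1, Ugt1a6a, Ugt1a9 and Ugt2a3) and in 6.43% of 32851 windows of the same length. Of these, Ugt1a1 was called higher and the other 3 lower in KO livers, and the part of the motif in these changes was not tested. Only exact copies of GTTAAT were counted, so looser forms of the site were not sought. TTCNNNGAA, a STAT-type site, stood in 1 member window (Ugt1a6a) and 7.02% of all windows. GCGTG, the core of the dioxin response element, and TGACNNNGC, the core of the antioxidant response element, stood in none of the 10, against 28.2% and 10.2% of all windows. The whole windows of Ugt2b5 and Ugt2b38 were 81.5% identical, and those of Ugt1a1 and Ugt1a9 46.2%.

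Of the other 12 UGT rows, 10 were tested, and in KO livers 2 rose and 4 fell, beside 11.4% and 10.3% of all tested genes. Ugt1a5 (0.90 ± 0.17, adjusted p = 0.00432) and Ugt1a10 (1.14 ± 0.21, 0.00345) rose, and both share the downstream exons of the Ugt1a locus. Ugt1a10 was low, at means of 5.88 CPM in Het and 12.8 CPM in KO livers. Its coding sequence was 95.3% identical to that of Ugt1a9, so some reads of one can be assigned to the other. Ugt3a1 (-1.80 ± 0.24, 7.16e-04), Ugt3a2 (-0.52 ± 0.11, 0.00781), Ugt1a7c (-0.71 ± 0.16, 0.00867) and Ugt1a6b (-0.59 ± 0.16, 0.0211) fell, all as log2 fold change ± SE with the adjusted p from edgeR's quasi-likelihood test. The Ugt3a enzymes use sugar donors other than UDP-glucuronic acid. Their names follow the deposited table, in which ENSMUSG00000072664 is Ugt3a1, and GENCODE M39 gives the names the other way round. Ugt1a2 (-1.03 ± 0.37, adjusted p = 0.0713), Ugt1a8 (-0.77 ± 0.39, 0.184) and Ugt2b37 (-0.20 ± 0.28, 0.650) did not pass. Of the rest, Ugt8a did not pass at under 1 TPM in every group mean, and Ugt2a1 and Ugt2a2 were not tested.

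Of 8 genes of the supply of UDP-glucuronic acid, the sugar donor, none rose and 2 fell, beside 11.4% and 10.3% of all tested genes. Ugp2, which makes UDP-glucose, went from 312.4 ± 85.5 to 211.5 ± 27.4 CPM (SD, n = 6 each, log2 fold change -0.54 ± 0.15 SE, adjusted p = 0.0225 in edgeR). Ugdh, which turns UDP-glucose into UDP-glucuronic acid, was 138.9 ± 47.9 CPM in Het and 139.6 ± 58.9 CPM in KO livers (adjusted p = 0.989 in edgeR). The median log2 fold change of this list was -0.20.

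Among 11 genes of glucuronide cleavage and glucuronate use, 2 rose and 4 fell, beside 11.4% and 10.3% of all tested genes. Ces1e, a carboxylesterase that holds β-glucuronidase in the endoplasmic reticulum, fell from 160.7 ± 47.4 to 49.5 ± 12.7 CPM (SD, n = 6 each, adjusted p = 2.21e-04 in edgeR). Miox, which oxidises inositol to glucuronate, rose from 0.0456 ± 0.0564 to 0.804 ± 0.315 CPM (adjusted p = 7.99e-04 in edgeR), a low level throughout. Gusb, the gene of β-glucuronidase itself, went the other way from Ces1e. It averaged 16.8 ± 2.39 CPM in Het livers (14.4 to 20.2) and 28.7 ± 7.75 CPM in KO livers (21.7 to 43.8, SD, n = 6 each). The net effect on glucuronide cleavage was not tested. The list's median was -0.33 on the log2 scale.

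Of 12 genes from heme to bilirubin and conjugate transport, 4 rose and 2 fell, the share that fell being close to the 10.3% of all tested genes and that which rose above their 11.4%. Abcc4, an efflux pump of conjugates, rose from 7.06 ± 3.50 to 19.7 ± 12.2 CPM (adjusted p = 3.98e-04 in edgeR), and Slco1b2, an uptake carrier for bilirubin and other anions, fell from 1072 ± 117.9 to 505 ± 101 CPM (SD, n = 6 each, adjusted p = 4.02e-04 in edgeR). Abcc2, the canalicular pump for conjugated bilirubin, had a fold of 0.932 (adjusted p = 0.648 in edgeR). The list's median log2 fold change was -0.09.

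Of 18 transcriptional regulators of UGT genes, 1 rose and 6 fell, where 11.4% of all tested genes rose and 10.3% fell, with a median log2 fold change of -0.31. Cebpa, a hepatocyte factor, fell from 255.3 ± 74.0 to 117.6 ± 33.98 CPM (adjusted p = 6.24e-04 in edgeR), and Nr1h4, the bile acid receptor FXR, from 101.7 ± 6.94 to 49.9 ± 12.6 CPM (SD, n = 6 each, adjusted p = 0.00126 in edgeR). Of 11 reference targets of these regulators, 2 rose and 1 fell, beside 11.4% and 10.3%. Nqo1, a target of NRF2, rose from 8.19 ± 3.66 to 34.6 ± 5.22 CPM (adjusted p = 1.57e-06 in edgeR), and Tiparp, a target of the aryl hydrocarbon receptor, from 10.6 ± 3.56 to 33.9 ± 25.6 CPM (adjusted p = 0.00970 in edgeR), with means of 51.9 CPM in KO females and 15.9 CPM in KO males. Other targets of the same factors did not follow them. Cyp1a2, a further target of the aryl hydrocarbon receptor, fell from 463 ± 151 to 168 ± 81.2 CPM (adjusted p = 0.0273 in edgeR), and Cyp1a1 was 0.913 CPM in Het and 0.956 CPM in KO livers (0.956). The NRF2 targets Gclc (255.2 to 197.8 CPM, adjusted p = 0.188), Gclm (159.1 to 136.2 CPM, 0.137) and Txnrd1 (120.1 to 123.9 CPM, 0.748) did not pass the edgeR test. The median of the list was 0.02, and no list was set against other genes by a test.

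For the 3 members that varied most over the 12 livers, the genes outside the family with the most similar pattern were named by the root mean square difference of centred log2 CPM. Ugt2b38 was nearest to Gtpbp4-ps1 (0.986) and Mup21 (1.05), the latter a major urinary protein gene. Mup21 measured 134, 137.3 and 85.5 CPM in Het males, and between 0.696 and 6.18 CPM in the other 9 livers. Ugt2b1 was nearest to B430119L08Rik (0.264) and Gm18635 (0.299). Ugt1a9 was nearest to Adtrp (0.245) and Cpt2 (0.248), the second an enzyme of mitochondrial fatty acid import. These likenesses over 12 livers of 4 groups are descriptions.

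Assigned counts ran from 30044812 to 43634073 per liver. The summed level of 6 hepatocyte markers was 53463 to 74674 CPM in Het and 63961 to 119429 CPM in KO livers, with 3 of 6 called lower. Most of this sum was Alb, with means of 48786 CPM in Het and 71542 CPM in KO livers, whereas Ttr (3479 to 1993 CPM), Serpina1c (3439 to 1461 CPM) and Cyp2e1 (5521 to 3230 CPM) had lower means in KO livers. Stellate cell markers fell in 2 of 5 (217.5 to 416.5 CPM in Het, 111.8 to 223.0 CPM in KO livers), Kupffer cell and macrophage markers rose in 2 of 5 (83.0 to 211.2 against 106.5 to 333.4 CPM), and 1 of 2 tested intestinal epithelium markers fell (28.8 to 46.0 against 6.53 to 24.7 CPM). Of the rest, 1 of 4 sinusoidal endothelium markers fell, 1 of 4 tested leukocyte markers rose, and none of 5 cholangiocyte or 4 red cell markers was called. The 1 pancreas acinar marker tested fell, and the other 3 were at 0 in all livers. Kidney tubule markers were at or near 0 in all livers, with sums of at most 0.219 CPM. Beside these marker counts, 11.4% of the genes tested rose in KO livers and 10.3% fell. The lists are short, and none was set against other genes by a test. The part of these marker differences in the UGT values was not tested.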

How the data were processed

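Total RNA was isolated with TRIzol, depleted of ribosomal RNA and made into stranded libraries. Per the labels and the study's methods, the authors aligned reads to GRCm39 with STAR 2.7.9a and quantified them with Salmon 1.10.1 on GENCODE M34. Deposited tables hold estimated counts per gene (expected counts), used here after rounding, 2 scaled versions of these estimated counts and TPM values by the authors. Salmon divides reads of shared exons among genes, and 12.0% of all values were not whole. Rn7s1 and Rn7s2 held 44.5% to 55.7% of TPM in each liver, so levels were compared between livers on counts, and TPM served for levels and shares within a liver.

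Genes with at least 5 reads in 3 livers were tested with edgeR 4.0.16 (R 4.3.3; TMM, robust quasi-likelihood fit, prior count 2) over 4 groups, with p-values adjusted over all genes by Benjamini-Hochberg. On counts simulated for the comparison of KO with Het in both sexes over 19355 genes, the script was checked on 200 changed genes. Each SE given is the absolute log2 fold change divided by the square root of F from the edgeR test, not a fitted standard error. DESeq2 1.42.0, limma 3.58.1, other scalings, filters and tables and leaving out each liver were alternatives. Nothing in the labels says beyond mouse numbers how livers were collected, so p-values measure the spread between these livers. Members and gene lists were chosen with earlier results of these data known. Named were all 10 members and other UGT genes with a mean of at least 1 TPM in a group (and Ugt8a, Ugt2a1 and Ugt2a2 to complete the family). Also named were the 2 called genes of smallest p per list and the 2 nearest genes of 3 members. Gusb, Ugdh, Abcc2, Cyp1a1, Cyp1a2, Gclc, Gclm, Txnrd1 and 4 hepatocyte markers were added after their values were seen. Exons, transcripts and coding sequences came from GENCODE M39, with identity counted over a global alignment, and promoters from RefSeq (GRCm38.p6), which matched all 10 members. Protein sequences were not used here. One called gene of the UDP-glucuronic acid supply list and the sequence of a shared exon are not reported here.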

Additional observations from a re-analysis of the deposited data

How the results depend on the processing

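The count of called members for KO against Het in both sexes stayed between 7 and 9 under all alternatives and omissions. In females the 3 calls became 5 with DESeq2 and ran from 0 to 3 when 1 liver was left out. In males the 6 calls ran from 2 to 8 when 1 liver was left out. For the interaction of genotype and sex the 0 calls became 1 with DESeq2, 1 with limma on log2(TPM + 1) and 1 with limma on log2(TPM + 0.1), each time Ugt2b38. For sex in Het livers the 3 calls became 1 when at least 10 reads were required in every liver, which removes Ugt2b38 from the test, and ran from 1 to 3 when 1 liver was left out. The cause was not tested. Among the log2 fold changes of single members, 97 values under an alternative lost a call, 10 gained one and 17 changed sign, none of them called under either setting. These were Ugt2b35 in females (-0.078 to 0.27 without 1 liver), Ugt2b34 in the interaction (-0.20 to 0.36), Ugt1a9 for sex in Het livers (-0.13 to 0.43, -0.087 with limma at a pseudocount of 1 and -0.088 at 0.1), Ugt2b34 for sex in Het livers (-0.10 to 0.20, -0.050 scaled by library size alone, -0.17 with limma at either pseudocount), and, for sex in KO livers, Ugt1a6a (-0.10 to 0.25), Ugt2a3 (-0.022 to 0.28) and Ugt2b34 (-0.16 to 0.40). For both sexes, Ugt2a3 lost its call in 6 of 14 other alternatives and in 10 of 12 omissions, Ugt1a6a in 1 of 15 and 7 of 12. The newer quasi-likelihood method of edgeR, added after seeing the data, gave 9, 3 and 6 calls in both sexes, females and males. The sum of the Ugt1a rows kept a log2 fold change between 0.02 and 0.10 without any 1 liver. Het animals were littermates of CX mice, but the labels give only unique mouse numbers and no litter. No analysis paired by litter was therefore possible. With 3 livers a group, members with a small change are at the limit of what the main test can call.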
